A study of Rattus norvegicus with 27 samples.

Results

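The comparison is between primary rat lung fibroblasts kept for 7 days on polydimethylsiloxane (PDMS), a silicone elastomer that the labels place at 3 to 5 kPa, and the same kind of cells kept for 7 days on plastic, for which the labels give no stiffness. It rests on 7 of the 27 RNA-seq libraries of the series. They were chosen by their labels, 4 as PDMS day 7 (replicates 1 to 4) and 3 as Plastic day 7 (replicates 1, 3 and 4). The cells of both groups are marked WT and MonoCulture in the count table, came from lung of Sprague-Dawley rats, an outbred stock, and had been selected on magnetic beads for CD90, a surface antigen of fibroblasts also called Thy-1. Both surfaces carried the same coat of rat tail collagen I at 38 µg/ml, and both groups were kept in the same commercial airway medium (MucilAir). No treatment beyond the surface is given. The seeding density is given incompletely. The age and sex of the animals, and which animal or culture gave which library, are not stated. Every p-value below therefore measures a spread between libraries, which may be technical in part. In the main edgeR tests that spread was estimated from all 27 libraries. The deposited counts name genes by Ensembl ID only and 0 of 32753 IDs could be paired with a symbol here, so no gene is named by function, the label "fibroblast" was not checked against marker genes, and genes are described in groups and by 4 IDs.

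Fibroblasts build and turn over the connective tissue matrix. They sense the stiffness of what they adhere to through integrins and the focal adhesions and actin cables tied to them, and stiff surfaces such as culture plastic are known to favour a contractile, matrix-producing myofibroblast state. The transcriptional regulators YAP and TAZ, and serum response factor with its actin-sensitive partners, are among the textbook carriers of that signal to the nucleus. These lines are background on why a soft and a rigid substrate are compared, and the members of those pathways could not be looked up by ID.

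The 4 PDMS libraries held 17.9 to 25.3 M counts (M, mega; mean 21.6 ± 3.92, SD, n = 4) and the 3 plastic libraries 17.5 to 21.3 M (mean 19.9 ± 2.12, SD, n = 3), within the 17.3 to 25.3 M of all 27 libraries. The PDMS libraries were closer to each other than the plastic libraries were. Distance was taken as the root mean square difference in log2 CPM over 14258 tested genes, where CPM is counts per M of reads after scaling by the trimmed mean of M-values (TMM). Within PDMS it ran from 0.54 to 0.66 over the 6 pairs, and within plastic from 0.77 to 1.0 over the 3 pairs. Between the groups it ran from 0.74 to 1.10 over the 12 pairs. The ranges of the plastic pairs and of the pairs between groups overlap. Plastic replicate 3 lay at 0.74 from PDMS replicate 3 and at 0.78 from PDMS replicate 1, closer than to either other plastic library (0.81 to replicate 1 and 1.0 to replicate 4). Among all 27 libraries its nearest was Plastic day 14 replicate 4, at 0.72. Each PDMS day 7 library had another PDMS day 7 library as its nearest. Results are therefore given with and without single libraries below.

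**Figure D1:**
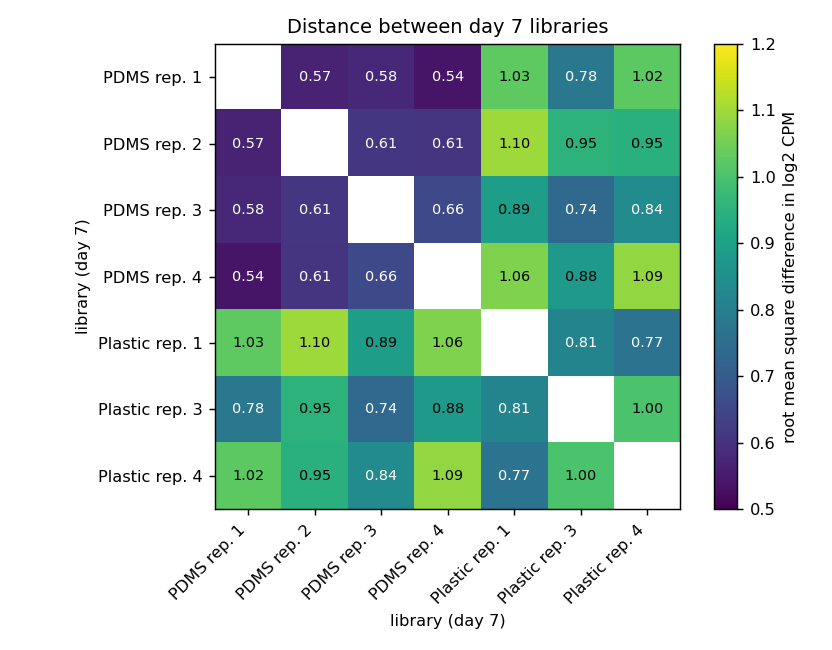
Root mean square difference in log2 CPM over the tested genes for each pair of the 7 day 7 libraries (rows and columns are libraries, colour and printed value give the distance). The 4 PDMS libraries form a block at 0.54 to 0.66, while Plastic replicate 3 sits at 0.74 and 0.78 from PDMS replicates 3 and 1 and at 1.0 from Plastic replicate 4.

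The question of the comparison is which transcripts differ between the soft elastomer and plastic after 7 days. Of 14258 genes, 121 differed (0.849% of genes tested), 100 of them lower on PDMS (0.701%) and 21 higher (0.147%) (edgeR quasi-likelihood test, Benjamini-Hochberg adjusted p under 0.05, n = 4 and 3, fitted with all 27 libraries). The genes lower on PDMS differed by far more than those higher on it. Their median log2 fold change was -2.27, with the middle 50% of the genes between -3.13 and -1.69, and the standard errors of the fold changes had a median of 0.49. Of the 100 genes, 87 were more than 2-fold lower, 63 more than 4-fold and 30 more than 8-fold. The 21 genes higher on PDMS had a median log2 fold change of 0.64, with the middle 50% between 0.50 and 1.01 and a median standard error of 0.15. Only 6 of the 21 were more than 2-fold higher, and 1 more than 4-fold.

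Large fitted differences were also more often towards lower levels on PDMS among all tested genes, whatever their p-value. TMM sets the centre of the fold changes close to 0. The median over all genes was 0.01, with 48.8% of genes below 0 and 51.2% above, and it was 0.13 when library totals alone set the scale. Differences of more than 2-fold were fitted as lower on PDMS for 1458 genes (10.2%) and as higher for 623 (4.37%). Beyond 4-fold the counts were 561 genes lower (3.93%) and 104 higher (0.729%), and beyond 8-fold 210 lower (1.47%) and 34 higher (0.238%). These are fitted values with no test on each gene, and large folds of genes with few reads depend on the prior count of the fit.

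**Figure D2:**
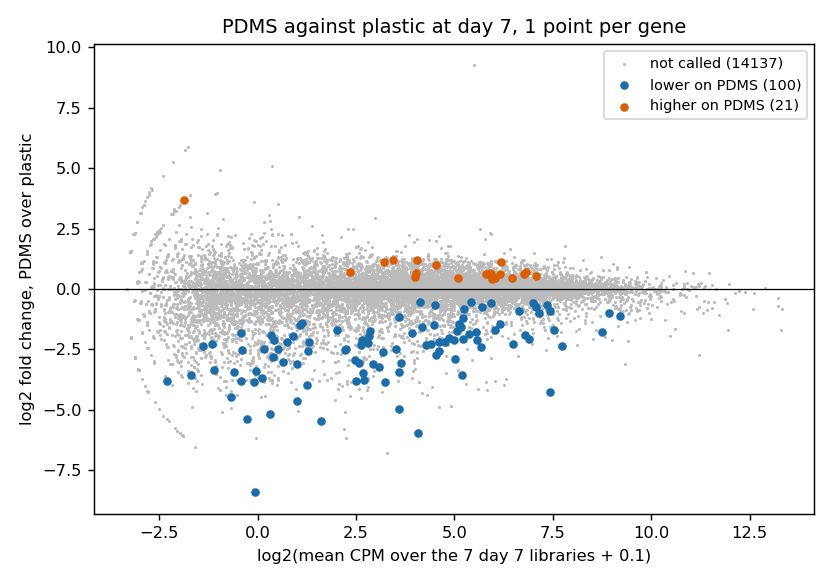
Log2 fold change of PDMS over plastic at day 7 (vertical) against log2 of the mean CPM over the 7 day 7 libraries plus 0.1 (horizontal), 1 point per tested gene; blue points are the 100 genes called lower on PDMS, orange the 21 called higher, grey the rest. The blue points reach far below the line at 0 (median -2.27), while most orange points lie close above it (median 0.64).

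Genes lower on PDMS were spread over all levels of expression. Their mean CPM over the 7 libraries had a median of 11.6, from 0.10 to 586. Grouped by mean CPM over all 27 libraries, 11 of 1771 genes below 1 CPM were lower on PDMS (0.621%), 32 of 3222 between 1 and 10 CPM (0.993%), 43 of 7068 between 10 and 100 CPM (0.608%) and 14 of 2197 from 100 CPM up (0.637%). The size of the difference was smaller in the well expressed genes, with median log2 fold changes of -3.43, -2.52, -2.11 and -1.05 in these 4 ranges. The median standard error over all tested genes was 0.76, 0.43, 0.19 and 0.19. A gene below 10 CPM thus mostly had to differ more in order to be called. From 10 CPM up the median standard error was level, while the median log2 fold changes were -2.11 and -1.05. The reason for the smaller differences was not tested. The 21 genes higher on PDMS had a median of 59.5 CPM. In the same 4 ranges they numbered 1 (0.056% of genes tested), 1 (0.031%), 16 (0.226%) and 3 (0.137%).

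In the 100 genes lower on PDMS the plastic libraries were uneven, and Plastic replicate 3 was closest to PDMS. The mean log2 CPM over the 100 genes was 4.40 in Plastic replicate 1, 3.47 in replicate 3 and 4.19 in replicate 4. On PDMS it was 1.88, 1.76, 2.15 and 1.49 in replicates 1 to 4. All 3 plastic libraries were above all 4 PDMS libraries, which the choice of the genes fixes. Within plastic, 60 of the 100 genes were highest in replicate 1, 29 in replicate 4 and 11 in replicate 3, against 28.0%, 35.7% and 36.2% of all tested genes. Within PDMS, 59 of the 100 were highest in replicate 3 and 53 lowest in replicate 4, where 27% and 25.3% of all tested genes were. Against the mean of the PDMS libraries, each of the 3 plastic libraries alone had more than 2-fold higher levels for most of the 100 genes, namely 91 in replicate 1, 81 in replicate 3 and 87 in replicate 4. More than 4-fold higher levels were reached by 65, 30 and 56 of them. The choice of the genes favours these counts too, and the same counts were not taken over all tested genes. Together the 100 genes held 0.755%, 0.573% and 0.684% of the reads of Plastic replicates 1, 3 and 4, and 0.220% to 0.308% of the reads of the PDMS libraries.

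The groups did not overlap in any of the 121 genes, where 18.3% of all tested genes had non-overlapping groups (10.0% lower and 8.28% higher on PDMS). In the 100 genes the lowest plastic library stood above the highest PDMS library by a median of 1.02 on the log2 scale, and by more than 1 in 51 genes. In the 21 genes higher on PDMS the lowest PDMS library stood above the highest plastic library by a median of 0.30. Those 21 genes varied little among replicates, with a median SD of log2 CPM of 0.17 on PDMS and 0.14 on plastic, against 0.44 and 0.45 in the 100 genes and 0.23 and 0.29 in all tested genes. Their mean log2 CPM was 5.20, 5.33, 5.05 and 5.23 in PDMS replicates 1 to 4 and 4.29, 4.49 and 4.55 in Plastic replicates 1, 3 and 4. A gene that varies little among replicates is called at a smaller fold. In 39 tested genes all 4 PDMS libraries held 0 counts, and 1 of these genes was among the 100. Set against a floor of 3 counts over the PDMS group it was at least 58.8-fold lower on PDMS than its 2.00 CPM on plastic, and the median log2 fold change of the 100 genes with this bound in place was -2.27. In 37 genes all 3 plastic libraries held 0 counts, and 0 of them were called (edgeR).

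**Figure D3:**
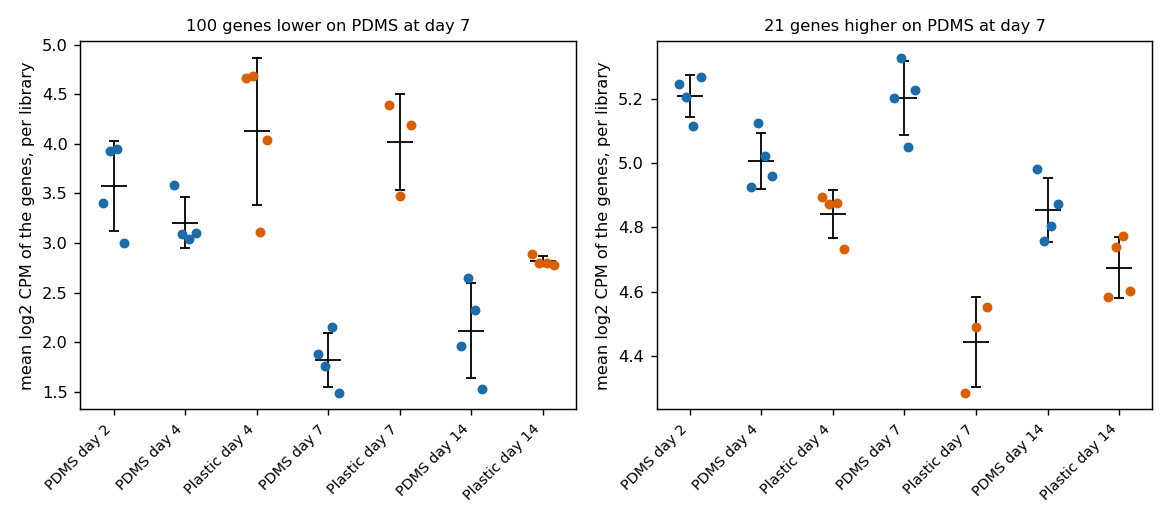
Mean log2 CPM, 1 point per library, of the 100 genes lower on PDMS at day 7 (left) and of the 21 genes higher on PDMS at day 7 (right), by group; blue points are PDMS, orange plastic, and bars are the mean and SD over libraries (n = 3 for Plastic day 7, otherwise 4). The day 7 gap is fixed by the choice of genes; at day 4 Plastic replicate 3 (3.11) lies within the PDMS points of the left panel.

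ENSRNOG00000006631 had the smallest p-value of all genes. It stood at 51, 42.1 and 60.6 CPM in Plastic replicates 1, 3 and 4, and at 12.1, 13.8, 12.5 and 12.3 CPM in PDMS replicates 1 to 4. The PDMS libraries were nearly equal and every plastic library was more than 3 times as high. The log2 fold change was -2.01 ± 0.32 (SE; edgeR adjusted p = 0.0274, means 12.7 ± 0.79 CPM, SD, n = 4, and 51.2 ± 9.23, n = 3). ENSRNOG00000009495 stood at 125, 88.4 and 120 CPM on plastic and at 42.4, 32.8, 49.2 and 37.4 CPM on PDMS. Its lowest plastic value was again in replicate 3, the plastic library closest to PDMS. Its log2 fold change was -1.45 ± 0.24 (SE; edgeR adjusted p = 0.0274).

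ENSRNOG00000014382 was higher on PDMS, at 18, 23.8, 17.2 and 18 CPM in replicates 1 to 4, against 11.3, 13.1 and 11.7 CPM on plastic. PDMS replicate 2 stood apart from the other 3, which lay close together above the plastic libraries. The log2 fold change was 0.68 ± 0.13 (SE; edgeR adjusted p = 0.0303), and 0.59 without PDMS replicate 2 (edgeR adjusted p = 0.125). ENSRNOG00000023533 stood at 29.3, 29.9, 30.7 and 28.1 CPM on PDMS and at 12.9, 17.7 and 13.3 CPM on plastic. The PDMS libraries were nearly equal, as in the first gene. Its log2 fold change was 1.01 ± 0.21 (SE; edgeR adjusted p = 0.0303). The 4 IDs were taken for their small p-values in this very comparison, so their values describe it and add no support to it.

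**Figure D4:**
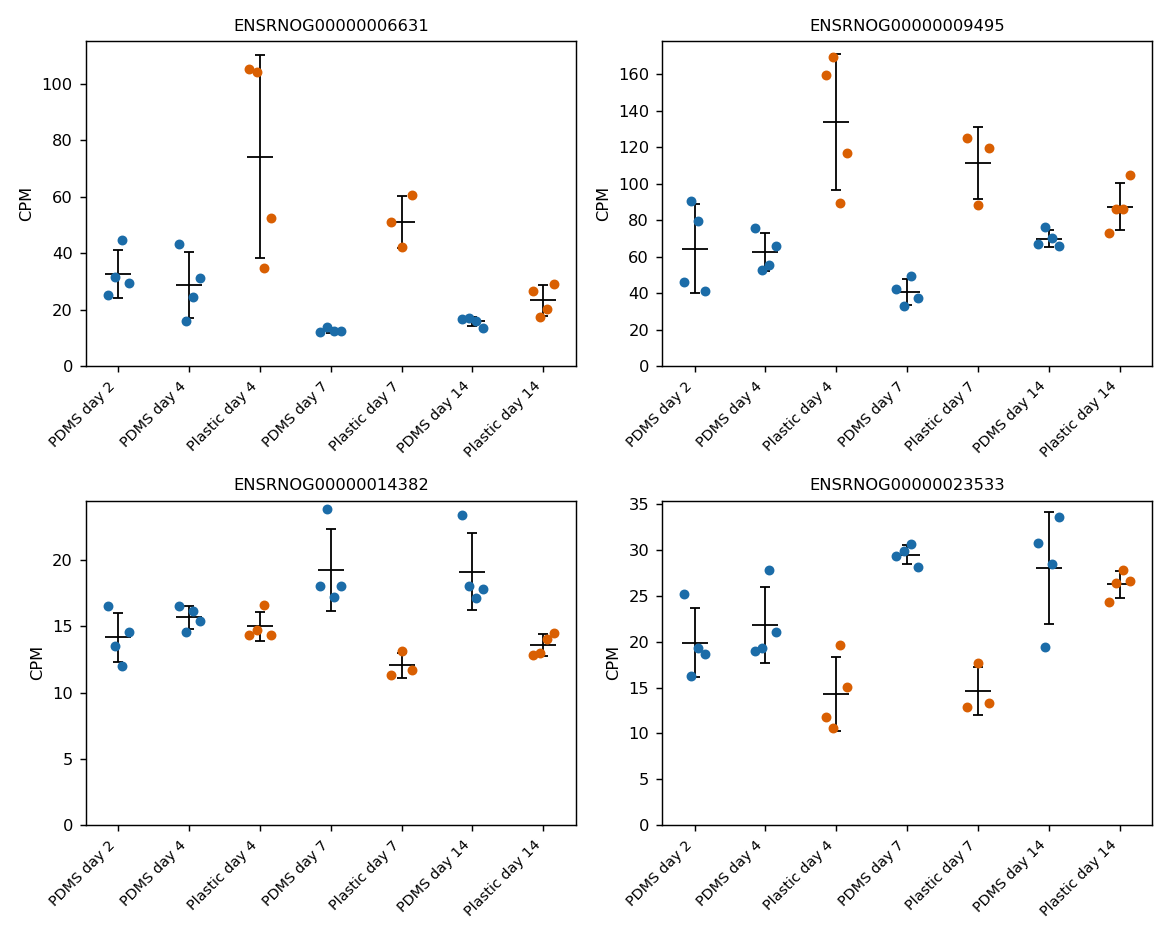
CPM of the 4 IDs in every library, by group; blue points are PDMS, orange plastic, and bars are the mean and SD over libraries (n = 3 for Plastic day 7, otherwise 4). At day 7 the groups are apart in all 4 panels, which the choice of the IDs favours. At day 14 they overlap for ENSRNOG00000023533, where PDMS runs from 19.4 to 33.6 CPM and plastic from 24.3 to 27.8. They also overlap there for ENSRNOG00000009495, with PDMS from 66.0 to 76.1 CPM and plastic from 72.9 to 105.

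All calls lay close to the threshold. The smallest adjusted p was 0.0274, 41 of the 121 calls had an adjusted p of 0.04 or more, and a further 94 genes lay between 0.05 and 0.06 (edgeR). With edgeR 0 genes were called without Plastic replicate 1 (1480 genes at an unadjusted p under 0.05), without PDMS replicate 1 (2374), without PDMS replicate 2 (1903) or without PDMS replicate 4 (2007), so all 4 IDs lost their call there. The count was 31 without Plastic replicate 4, where both IDs higher on PDMS lost theirs, 193 without Plastic replicate 3 and 99 without PDMS replicate 3. Under each of these 7 omissions all 100 genes stayed lower on PDMS, with medians between -2.43 and -2.12. All 21 stayed higher, with medians between 0.58 and 0.68. These signs were fixed in advance and add no support, since the groups did not overlap in any of the 121 genes. When library totals alone set the scale, the all-gene median was 0.13 in place of 0.01. This left 60 calls, 35 lower and 25 higher on PDMS (41.7% higher, in place of 17.4%), and the 121 genes kept their signs.

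**Figure D5:**
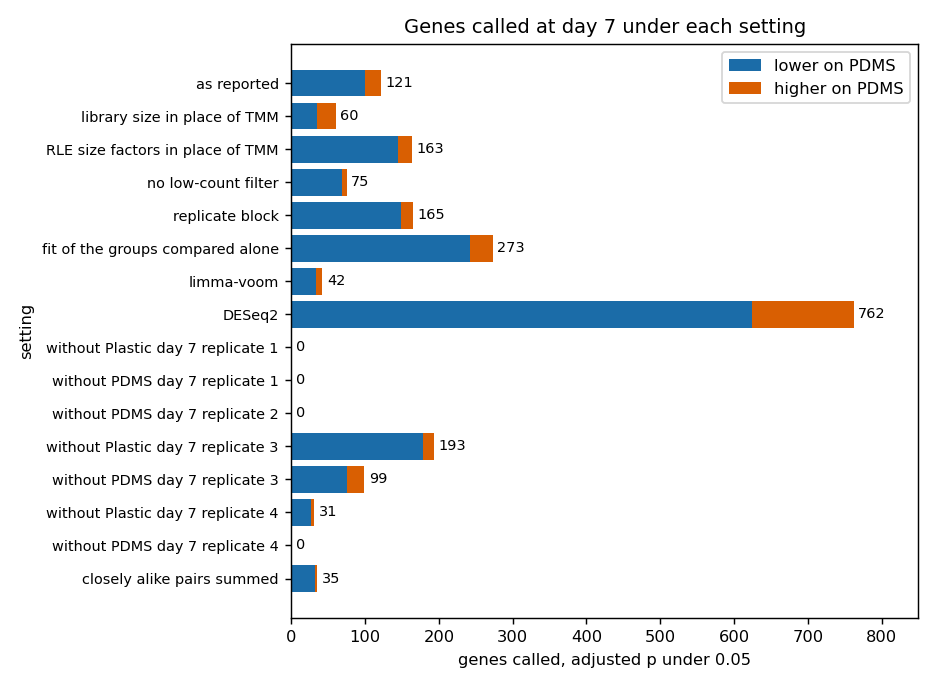
Number of genes called between PDMS and plastic at day 7 (adjusted p under 0.05) under each setting, split into genes lower (blue) and higher (orange) on PDMS. The count runs from 0 in 4 of the fits that leave out 1 library to 762 with DESeq2, against 121 as reported, and genes lower on PDMS are the majority in every setting with a call.

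The same contrast at day 4 and day 14 uses other libraries, 8 for each day. With edgeR 0 genes were called at day 4 (0%), where 1246 (8.74%) had an unadjusted p under 0.05 and DESeq2 called 15 and limma-voom 0. Day 14 also had 0 edgeR calls (0%), with 1266 genes (8.88%) at an unadjusted p under 0.05, 114 called by DESeq2 and 2 by limma-voom. Single libraries decided both counts of calls. EdgeR called 245 genes at day 4 without Plastic day 4 replicate 3 (209 lower and 36 higher on PDMS). It called 88 at day 14 without Plastic day 14 replicate 4 (44 in each direction). Leaving out Plastic day 4 replicate 1 or 2 instead lowered the 1246 genes to 686 or 604, with 0 calls. Gene by gene, most of the 100 genes lower on PDMS at day 7 had fitted values of the same sign at these days, 95 at day 4 and 92 at day 14, where 49.8% of all genes were below 0 at each. An unadjusted edgeR p under 0.05 in that direction was reached by 69 of them at day 4 (6.38% of all genes) and 28 at day 14 (4.40%). These p-values use the same spread per gene, estimated from all 27 libraries, as the day 7 calls. Choosing genes called at day 7 therefore favours small p-values at these days, and all genes are not a matched background. At day 4 the groups did not overlap in 20 of the 100 genes, all with PDMS lower, where 1.89% of all genes did so in that direction. At day 14 they also did not overlap in 20, again all lower, against 2.91% of all genes. The median log2 fold change of the 100 genes was -1.21 at day 4 and -0.54 at day 14, against 0.00 for all genes at both days. Of the 21 genes higher on PDMS, 18 were above 0 at day 4 and 17 at day 14 (50.2% and 50.1% of all genes). An unadjusted edgeR p under 0.05 was reached by 6 and 4 of them (2.36% and 4.48% of all genes), with the same limit. In this set 6 did not overlap at day 4 and 2 at day 14, all of them higher, against 2.26% and 2.99% of all genes. Their medians were 0.15 and 0.17. Plastic day 4 replicates 1 and 2, and Plastic day 14 replicates 2 and 3, are closely alike pairs. Their variance was 7.74 and 8.14 times the counting noise, against 32.1 or more for all other pairs within a group. These groups may therefore hold less than 4 independent libraries. With each pair summed, 605 genes at day 4 and 925 at day 14 had an unadjusted edgeR p under 0.05, in place of 1246 and 1266. The shares of the 100 and 21 genes at these days were not recounted in that fit.

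The levels of the 100 genes in the other groups are given as a description, since choosing genes for their day 7 gap sets the day 7 values apart. Day 2 on PDMS had a mean log2 CPM over these genes of 3.57 ± 0.45 and day 4 of 3.20 ± 0.26 (SD, n = 4 each). The later PDMS groups stood at 1.82 ± 0.27 (day 7) and 2.11 ± 0.48 (day 14). The plastic groups stood at 4.13 ± 0.74 (day 4), 4.02 ± 0.49 (day 7, n = 3) and 2.82 ± 0.05 (day 14). The course over days was not tested, and nothing on its timing can be read from genes chosen in this way.

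The fold changes were larger at day 7 than at day 4 in all 100 genes, and larger than at day 14 in 99 of them, as choosing genes on day 7 favours. The difference between days itself was not shown. Tested as an interaction, the day 7 fold change departed from the day 4 one in 0 genes (0%) by edgeR, 0 by DESeq2 and 0 by limma-voom, with 419 genes (2.94%) at an unadjusted edgeR p under 0.05. Set against day 14 the same test gave 0 genes (0%) by edgeR, 1 by DESeq2 and 0 by limma-voom, with 980 genes (6.87%) at an unadjusted edgeR p under 0.05.

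The 4 IDs differed in how they behaved at the other days. ENSRNOG00000006631 had a log2 fold change of -1.37 ± 0.30 (SE) at day 4 and -0.56 ± 0.30 at day 14. ENSRNOG00000009495 had -1.10 ± 0.22 at day 4 and -0.32 ± 0.22 at day 14. Neither was called at these days (edgeR adjusted p = 0.351 for each at day 4, 0.599 and 0.722 at day 14). On plastic at day 4 both were highest in the alike replicates 1 and 2, at 105 and 104 CPM for ENSRNOG00000006631 and 159 and 169 CPM for ENSRNOG00000009495. ENSRNOG00000014382 was level at day 4, with means of 15.7 ± 0.85 CPM (PDMS) and 15 ± 1.08 CPM (plastic; SD, n = 4 each), and stood at 19.1 ± 2.91 against 13.6 ± 0.82 CPM at day 14 (log2 fold change 0.49 ± 0.12, SE; edgeR adjusted p = 0.145). ENSRNOG00000023533 went the other way, with a log2 fold change of 0.61 ± 0.19 at day 4 (edgeR adjusted p = 0.351) and 0.09 ± 0.19 at day 14 (adjusted p = 0.921). On plastic its mean went from 14.6 ± 2.64 CPM at day 7 to 26.3 ± 1.46 at day 14, beside 29.5 ± 1.08 and 28.0 ± 6.13 on PDMS. None of the 4 passed the interaction tests (lowest edgeR adjusted p = 0.712).

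The 100 genes also varied together among the libraries of the other days. Those libraries entered the fit that called the genes, through the filter, the scaling and the shared estimate of spread. When only the 7 day 7 libraries were fitted, 93 of the 100 genes were tested and 71 called, where 273 of all 13012 genes tested were called. Of the 21 genes higher on PDMS, 20 had a fitted value above 0 and 3 were called in that fit. It reuses the libraries that chose the genes, so these counts add no support. Over the 20 libraries of the other days, after taking out each group's mean, the correlation between 2 genes of the 100 had a median Pearson r of 0.38, and 85.4% of the pairs were above 0. For the 21 genes the median was 0.21, and for all tested genes it was 0.00. The 20 libraries share their scaling and include both alike pairs, and with 1 library of each pair left out the median for the 100 genes was 0.38. This is given as a description across genes, which are not independent. All tested genes are not a matched background, since the 100 genes were chosen in the same direction and vary more among replicates. At day 7 their median SD of log2 CPM was 0.44 on PDMS and 0.45 on plastic, against 0.23 and 0.29 for all tested genes.

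The share of reads in the most abundant genes was higher in every plastic library than in any PDMS library, but neither of 2 measures of this passed 0.05 after adjustment. The 10 most abundant genes of each library took 11.3%, 8.07% and 7.65% of reads in Plastic replicates 1, 3 and 4, and 5.67% to 7.06% on PDMS. The means were 9.0% ± 1.97 (SD, n = 3) and 6.36% ± 0.57 (n = 4), with no overlap (two-sided exact permutation p = 0.0286, the smallest that 35 assignments allow; adjusted p 0.0571 over the 2 measures of this paragraph). The difference of PDMS minus plastic was -2.63 percentage points, and -1.5 if Plastic replicate 1 is left out. The number of genes that held 50% of the reads was 492, 641 and 678 on plastic and 695 to 824 on PDMS, also with no overlap (two-sided exact permutation p = 0.0571, adjusted 0.0571). The mean difference was 162 genes, and 106 without Plastic replicate 1. The part of these measures in the calls was not tested beyond the change of scaling given above. The plan held no test of either measure, so both tests were added to it.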

How the data were processed

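Messenger RNA of rat lung fibroblasts was sequenced on an Illumina HiSeq2000 from 200 ng of total RNA per library, per the labels' protocols. The authors deposited raw counts per Ensembl gene ID. Per the series design text, duplicates were assessed with dupRadar 1.4 and expression was quantified with Cufflinks 2.2; the submitters' processing notes also name STAR and DESeq2 without a role. The counting program, its strand setting, genome build and annotation were each not given in the sources used here. Reads of overlapping genes or near-identical copies may therefore be shared or split. The table has 28 count columns, of which 1 matched no sample described here and stayed out.

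The tests used edgeR 4.0.16 (R 4.3.3): filterByExpr (14258 genes kept), TMM, and glmQLFit with a term for each substrate and day over 27 libraries (20 residual degrees of freedom). Log2 CPM carries a prior count of 2, and a standard error is the log2 fold change divided by the root of its F statistic. Sequences, gene lists and promoter motifs were not used, since IDs were not paired with symbols. The rule for named genes then took the 2 IDs of smallest adjusted p in each direction, ties by unadjusted p. The comparison, lists and rule were chosen with earlier results of these data known. The tests were checked on simulated data with known changes in 200 genes. There 39% of 2-fold and 71% of 4-fold changes were recovered, and 5.98% of the calls were false. The simulated counts were drawn independently for each gene, without deviations shared by the genes of a library. Alternatives were DESeq2 1.42.0, limma-voom (limma 3.58.1), other scalings, no filter, a replicate block, the compared groups alone, each library left out and, chosen after seeing the data, closely alike pairs summed.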

Additional observations from a re-analysis of the deposited data

Results flagged for a closer look

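Dixon's criterion asks, within a group of 4, whether the highest or lowest library is set off from the other 3 by most of the range. Over 39 such groups it picked out 5 libraries, and about 1.95 are due to chance at its level. PDMS day 7 replicate 2 held 23.8 CPM of ENSRNOG00000014382, above 17.2 to 18 in the others. PDMS day 14 replicate 1 held 23.4 CPM of the same gene. The mean log2 CPM of the 100 genes lower on PDMS at day 7 was 3.58 in PDMS day 4 replicate 1 and 2.89 in Plastic day 14 replicate 1, each above the rest of its group. That of the 21 genes higher on PDMS was 4.73 in Plastic day 4 replicate 4, below the rest of its group.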

How the results depend on the processing

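At day 7, in place of 121 genes, 60 were called when scaled by library size, 75 with no low-count filter, 273 in a fit of the day 7 groups alone, 42 with limma-voom, 762 with DESeq2 and 35 with closely alike pairs summed. Size factors by relative log expression gave 163. Leaving out 1 library gave 0 to 193 at day 7, 0 to 245 at day 4 and 0 to 88 at day 14, and 0 to 1 for each interaction. At day 4 DESeq2 called 15. At day 14 library size called 8, limma-voom 2 and DESeq2 114, and DESeq2 called 1 for day 7 against day 14. The cause was not tested. With the replicate number as a block, 165 genes were called at day 7, 2 at day 14 and 0 in the others. No pairing of the day 7 libraries by number was seen. Deviations from the group means correlated at -0.03, -0.14 and -0.26 for numbers 1, 3 and 4. Pairs of unlike number ran from -0.26 to 0.41, and 0 of 3 PDMS libraries correlated best with their own number. So few values cannot tell whether a number stands for a shared animal or culture. The 4 IDs kept their direction in all 15 alternatives and their call in 11, 11, 9 and 10 of them. Where 1 library was left out the direction was fixed, since the day 7 groups did not overlap in these genes. The other alternatives reused the same day 7 counts, on which the 4 IDs were chosen for their small p-values. Kept directions and calls therefore add no support. With 3 plastic libraries, a gene that was not called is not shown to be equal on both substrates.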
